A study of Mus musculus with 9 samples.

Results

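Snap25, Stx1a, Vamp2, Syt7, Sytl4, Rab3a, Rph3al, Ptprn, Ptprn2 and Slc30a8 are genes of the machinery that docks insulin granules at the cell surface and lets them fuse. They form a list chosen by function, and no measured value enters its rule, though earlier results of these data were known. They were measured in MIN6 cells, an insulin-producing line derived from a mouse insulinoma and used in place of pancreatic beta cells. All 10 were found among the 52408 genes that the transcript identifiers could be assigned to, and all 10 were among the 11950 genes tested. Total RNA was sequenced in 9 libraries of 3 groups, with 3 libraries each. The control libraries came from MIN6 cells that were not transfected (genotype label CTRL). The second group overexpressed the nuclear receptor Nr4a1 (label OE). The last group, here called the EGCG libraries (label TRT), received EGCG, a green tea catechin, upon overexpression of Nr4a1. Because the control cells were untransfected, the transfection and Nr4a1 cannot be told apart in any comparison with control. No group received EGCG without Nr4a1, and its dose and time were not stated.

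Insulin is stored in dense-core granules with zinc, which is pumped into the granule by Slc30a8 (ZnT8). Granules are brought to the plasma membrane by small GTPases of the Rab3 and Rab27 type and their effectors, which dock them there. Fusion is driven by a SNARE complex of Vamp2 on the granule with Stx1a and Snap25 on the plasma membrane, and calcium sensors of the synaptotagmin family start it when calcium enters. Ptprn (IA-2) and Ptprn2 (phogrin) span the granule membrane and are autoantigens of type 1 diabetes.

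Values are TPM, a length-corrected measure of a transcript's share of the library, summed over the transcripts of a gene. Read numbers cannot be recovered from it, so sequencing depth is unknown and values carry no counting interval. A rise or fall is called where limma's test on log2(TPM + 1) gave a Benjamini-Hochberg adjusted p under 0.05 over all tested genes, and log2 fold changes are on that scale, which understates the change of low genes. The labels do not say that the 3 libraries of a group came from separate cultures, so the test measures the spread between these libraries, which may be technical. The overexpression libraries enter both the comparison with control and the comparison with EGCG, so the values of these comparisons are not independent of each other.

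As a check of the labels, Nr4a1 rose from 0.723 ± 0.0814 TPM (SD, n = 3) in untransfected control cells to 138.7 ± 23.1 TPM in the overexpression group. The EGCG group held 53.9 ± 7.35 TPM, so it received the compound and also had less Nr4a1 transcript. Beta cell marker genes were abundant in every library, with 1 of the 11, the maturity marker Ucn3, under 1 TPM throughout. Their sum moved with the groups, from 3712.3 to 3862.3 TPM in control, 5742.6 to 6028.4 TPM in the overexpression libraries and 3968.6 to 4305.5 TPM with EGCG. Of the 10 tested, 7 were higher and 1 lower with overexpression, beside 38.2% and 21.3% of all tested genes. With EGCG against overexpression 1 was higher and 7 lower, beside 18.8% and 34.1%. Against control the EGCG libraries had 2 higher and 5 lower, beside 11.1% and 7.1%, although the marker sum lay above control. The part of this in the results was not tested. Markers of acinar cells (7 genes, at most 0.49 TPM in sum, Prss2 at 0 in all libraries), fibroblasts (6 genes, at most 0.89 TPM) and leukocytes (6 genes, at most 1.4 TPM) were near 0. The 5 endothelial markers summed to between 1.42 and 2.69 TPM and the 5 ductal markers to between 10.7 and 18.3 TPM, with Krt7 as the only tested ductal gene. The 7 markers of other islet cells, almost all of it Gcg, summed to 318.8 to 336.1 TPM in control, 729.8 to 811.1 TPM under Nr4a1 overexpression and 294.1 to 326.8 TPM with EGCG; their part in the results was not tested. In bulk RNA of this kind, fewer cells with a transcript and less of it per cell cannot be told apart. A low-level signal over chemoreceptor genes, which act in sensory neurons, was highest in control, where its sum was 108, 91.7 and 50 TPM by replicate, and lay between 4.22 and 11.8 TPM in the 6 other libraries. Its part in the results was not tested.

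By level, with all transcripts of a gene summed, Sytl4 came first in every group and Slc30a8 second. Without 2 short Sytl4 transcripts, described with that gene, Sytl4 averaged 26.8 TPM in control, below Slc30a8 and Snap25, and 37.8 TPM with EGCG, below Slc30a8, and it came first only with overexpression (60.9 TPM). In control the order went on with Snap25, Rab3a, Ptprn, Ptprn2, Vamp2, Rph3al, Stx1a and Syt7, from group means of 51.4 TPM for Sytl4 to 5.41 TPM for Syt7. The ranges of neighbours in that order did not overlap, except those of Vamp2 and Rph3al. With overexpression Ptprn stood above Rab3a, and with EGCG these 2 overlapped. Rph3al overlapped Vamp2 in each group, and Stx1a overlapped Syt7 with overexpression. Summed, the 10 genes amounted to 198.6 ± 11.5 TPM in control (SD, n = 3 here and in the other groups). The sum was 249.3 ± 4.85 TPM with overexpression and 194.4 ± 7.04 TPM when EGCG was added. These sums include the 2 short Sytl4 transcripts, which held on average 45.8% of Sytl4 in control, 16.4% with overexpression and 21.6% with EGCG. Without them the mean sum was higher with EGCG than in control, and still highest with overexpression. The order of control and EGCG in the sum thus depends on these transcripts.

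**Figure D1:**
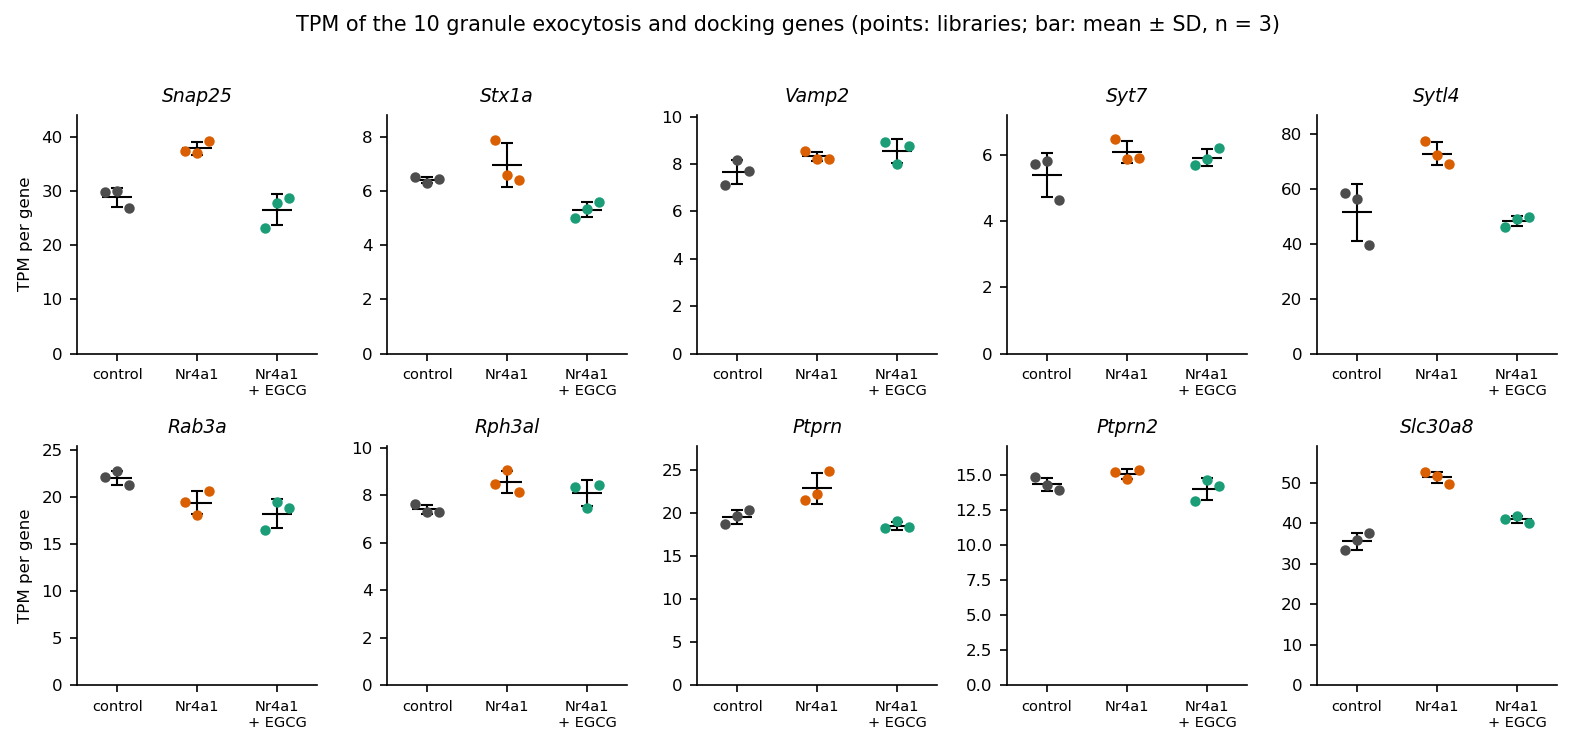
TPM (y axis, from 0, one scale per gene) of each of the 10 genes in the 3 groups (x axis); points are libraries and bars the mean ± SD of 3. Snap25, Sytl4 and Slc30a8 have all overexpression libraries above all control and all EGCG libraries, while Rab3a is highest in control.

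The first comparison asks how the granule machinery differed between Nr4a1-overexpressing and control cells. Snap25, Sytl4, Slc30a8, Ptprn and Rph3al rose, by 1.16- to 1.44-fold of the control mean, and 0 of the 10 fell (1 at an unadjusted p under 0.05, Rab3a), but under each of 3 other scalings (median-ratio, quantile, or nuclear protein-coding genes alone) only Snap25, Sytl4 and Slc30a8 rose and Rab3a fell. Among all tested genes 59.5% were called in this comparison and 38.2% were called higher, so 5 of 10 is not far from the background. The median log2 fold change of the 10 was 0.17, with a range from -0.18 to 0.52, beside a median of 0.1 over all tested genes. In 8 of the 10 the 2 groups' libraries did not overlap, as in 65% of all tested genes.

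The second comparison asks how the same genes differed when EGCG was added to cells that overexpress Nr4a1. Snap25, Sytl4, Slc30a8, Ptprn and Stx1a fell, to between 66.2% and 81.0% of the overexpression mean, and 0 rose (also 0 at an unadjusted p under 0.05); quantile normalization left 3 of these calls (Snap25, Sytl4 and Stx1a), and on nuclear protein-coding genes alone 4 fell, without Ptprn, and Vamp2 rose. Over all tested genes 53% were called and 34.1% were called lower. The median of the 10 was -0.19 (range -0.58 to 0.04), beside -0.09 over all tested genes, and the groups did not overlap in 6 of the 10, as in 64.7% of all tested genes.

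Set against control, the EGCG libraries showed 1 of the 10 genes higher, Slc30a8, and 1 lower, Rab3a, where 18.2% of all tested genes were called, 11.1% higher and 7.1% lower. The groups did not overlap for 3 of the 10, Slc30a8, Rab3a and Stx1a, as in 34.9% of all tested genes. Other scalings changed these calls: median-ratio scaling gave 0 higher, without Slc30a8 (limma, adjusted p = 0.0518), and 2 lower, Rab3a and Stx1a. Quantile normalization gave 1 higher and 2 lower, again with Stx1a, and nuclear protein-coding genes alone gave 2 higher, with Vamp2, and 1 lower. In limma's fit of these 6 libraries alone 0 of the 10 were called, beside 7.49% of all tested genes. Likewise 0 were called without control replicate 1 or 2 or without EGCG replicate 1 or 3, beside 6.15% to 14.2% of all tested genes. In all of these fits 3 or 4 of the 10 had an unadjusted p under 0.05 in limma's test. Without overexpression replicate 2 or overexpression replicate 3, and without EGCG replicate 2, the single call was Rab3a. Those fits called 10.4% to 13.6% of all tested genes.

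**Figure D2:**
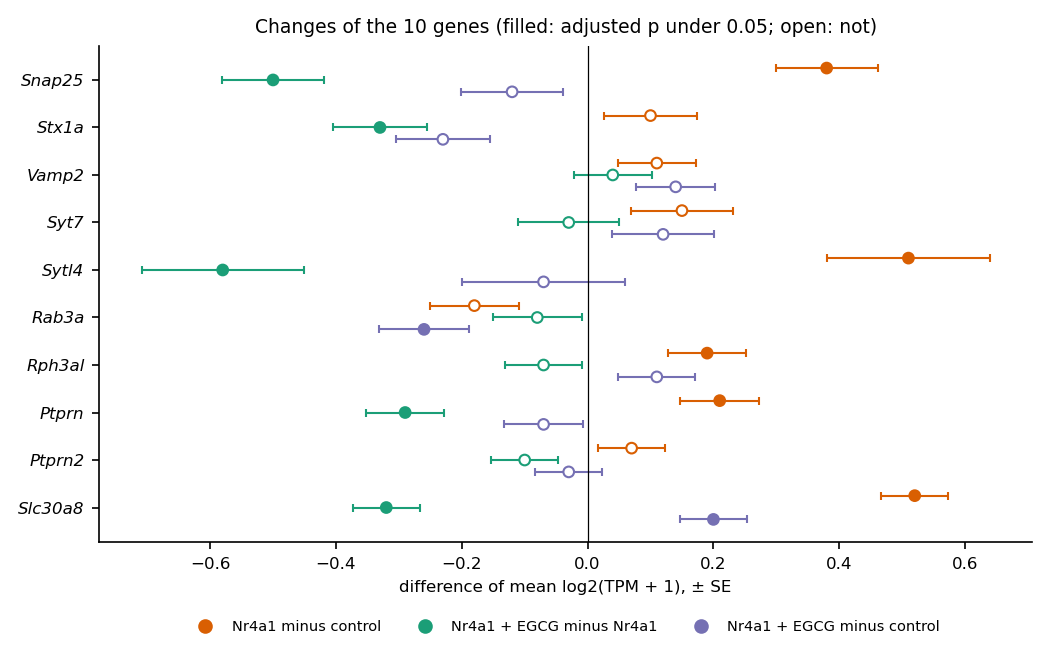
Difference of mean log2(TPM + 1) (x axis, bars are limma's SE) for each of the 10 genes (y axis) in the 3 comparisons (colours), filled where the adjusted p is under 0.05. Snap25, Sytl4, Ptprn and Slc30a8 are filled on the right for overexpression against control and on the left for EGCG against overexpression.

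Among the 3 SNARE genes of the list, Snap25, which encodes the plasma membrane SNARE with a pair of helices in the fusion complex (chromosome 2), had the widest differences. Its control libraries held 29.76, 29.96 and 26.88 TPM, the overexpression libraries 37.36, 37.04 and 39.34 TPM, and the EGCG libraries 23.24, 27.88 and 28.69 TPM. Every overexpression library was above every library of the other groups, while control and EGCG overlapped. The rise with overexpression was 0.38 ± 0.0813 on the log2 scale (SE; limma, adjusted p = 0.00309), and the fall with EGCG was -0.50 ± 0.0813 (limma, adjusted p = 0.000856). EGCG against control gave -0.12 (limma, adjusted p = 0.33).

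Snap25 is spliced with either of 2 alternative forms of exon 5, which give the proteins SNAP25a and SNAP25b. Both exons have 118 bases, all coding, and lie on the plus strand at chr2:136769743-136769860 (in Snap25-202, SNAP25a) and chr2:136770057-136770174 (in Snap25-201, SNAP25b) of GRCm38. They are shown because a read inside this exon separates the 2 isoforms; capitals mark the 31 positions at which the exons differ (73.7% identity).
Snap25-202 exon 5: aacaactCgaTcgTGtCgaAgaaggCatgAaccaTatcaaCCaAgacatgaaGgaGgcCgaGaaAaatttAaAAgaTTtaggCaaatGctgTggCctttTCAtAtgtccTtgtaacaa
Snap25-201 exon 5: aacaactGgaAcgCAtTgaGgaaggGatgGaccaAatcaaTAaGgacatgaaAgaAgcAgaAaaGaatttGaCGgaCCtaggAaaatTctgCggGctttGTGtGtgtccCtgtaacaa

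Snap25-201 averaged 14.8 ± 0.461 TPM in control (SD, n = 3, as for the other groups). It reached 21.4 ± 0.395 TPM in the overexpression group and 14.1 ± 1.33 TPM in the EGCG group. It rose by 0.51 ± 0.0678 (SE; limma over all transcripts, adjusted p = 0.000652) and fell by 0.57 ± 0.0678 with EGCG (limma, adjusted p = 0.000538). Snap25-202 went from 11.4 ± 1.41 to 15.2 ± 0.709 and back to 10.3 ± 1.5 TPM, a rise of 0.38 ± 0.116 (limma, adjusted p = 0.0269) and a change of -0.53 ± 0.116 (limma, adjusted p = 0.0095). The rise of Snap25-202 was no longer called with median-ratio scaling (limma, adjusted p = 0.0882) or quantile normalization (limma, adjusted p = 0.102), nor without control replicate 3 or without any 1 of the overexpression replicates (limma, adjusted p between 0.0553 and 0.083). The share of Snap25-202 in the sum of both isoforms was 43.6% ± 2.85 in control (SD, n = 3), against 41.5% ± 0.7 and 42.1% ± 1.37 in the overexpression and EGCG groups, and these ranges overlapped. The 2 annotated transcripts also differ in the length of the last exon (277 bases in Snap25-202, 1354 in Snap25-201), so reads there bear on the split as well. The remaining transcript, Snap25-203, keeps an intron and has no coding sequence; it was looked at after its values were seen. It held 2.66 TPM in control, 1.36 TPM in the overexpression group and 2.25 TPM in the EGCG group, thus lower with overexpression while both coding isoforms rose (log2 fold change -0.64 ± 0.131 SE; limma, adjusted p = 0.00526), and higher with EGCG (0.45 ± 0.131; limma, adjusted p = 0.0314). That second call ended without any 1 overexpression replicate and without EGCG replicate 1 or EGCG replicate 3 (limma, adjusted p between 0.0526 and 0.101). Of all tested transcripts annotated as retained introns, 14.4% were lower with overexpression and 9.75% were higher with EGCG.

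Stx1a (chromosome 5) encodes syntaxin-1A, the plasma membrane SNARE that binds Snap25 and Vamp2. It stood at 6.53, 6.31 and 6.45 TPM in control, at 7.89, 6.59 and 6.42 TPM under Nr4a1 overexpression and at 5.02, 5.35 and 5.59 TPM with EGCG. The EGCG libraries were below all others, and control and overexpression overlapped. With EGCG it fell by 0.33 ± 0.0744 (SE; limma, adjusted p = 0.00505) against overexpression. The difference between overexpression and control was 0.10 ± 0.0744 (limma, adjusted p = 0.291) and turned to -0.01 with median-ratio scaling. Against control the EGCG libraries gave -0.23 (limma, adjusted p = 0.0581), which was called lower with median-ratio scaling (-0.25; limma, adjusted p = 0.0341) and with quantile normalization (-0.26; limma, adjusted p = 0.0258). The gene sum covers transcripts that moved apart. Stx1a-201, the protein-coding transcript, rose from 4.35 ± 0.311 to 5.85 ± 0.314 TPM (0.36 ± 0.064; limma, adjusted p = 0.00269) and fell to 4.06 ± 0.106 TPM with EGCG (-0.44 ± 0.064; limma, adjusted p = 0.00152). Stx1a-203, a short transcript without an annotated coding sequence, fell from 1.99 ± 0.41 to 0.867 ± 0.555 TPM with overexpression (-0.71 ± 0.207; limma, adjusted p = 0.0233), a call that ended without control replicate 1 or 2 or overexpression replicate 2 or 3 (limma, adjusted p between 0.0583 and 0.0745). It was at 1.00 TPM with EGCG. Protein-coding transcripts made up 67.7% ± 4.89 of Stx1a in control (SD, n = 3), 84.4% ± 5.33 in the overexpression group and 76.4% ± 2.22 in the EGCG group. The control and overexpression libraries did not overlap in that share, at 63.4% to 73.0% against 78.7% to 89.3%.

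Vamp2 (chromosome 11), the granule SNARE also called synaptobrevin 2, did not pass the test in any of the comparisons, but on nuclear protein-coding genes alone it was called higher with EGCG than with overexpression (0.19; limma, adjusted p = 0.0488) and than in control (0.22; limma, adjusted p = 0.0472). Its libraries held 7.13, 8.16 and 7.72 TPM in control, 8.53, 8.21 and 8.23 TPM under Nr4a1 overexpression and 8.94, 7.98 and 8.77 TPM with EGCG. The overexpression libraries were above the control libraries by a narrow margin, with a log2 fold change of 0.11 ± 0.0623 (SE; limma, adjusted p = 0.168), which was -0.07 when only protein-coding transcripts were summed. Its main transcript Vamp2-201 held 5.46, 5.01 and 5.07 TPM by group mean in the order control, overexpression and EGCG.

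Syt7 (chromosome 19), a calcium sensor of slow and sustained insulin release, was the lowest of the 10 in control. It was measured at 5.74, 5.84 and 4.65 TPM in control, 6.49, 5.90 and 5.91 TPM under Nr4a1 overexpression and 5.70, 5.88 and 6.23 TPM with EGCG. Control replicate 3 was the lowest of all 9, and the overexpression libraries lay just above the control range. No comparison passed the test, with log2 fold changes of 0.15 ± 0.0806 (SE) for overexpression against control (limma, adjusted p = 0.132) and -0.03 for EGCG against overexpression (limma, adjusted p = 0.751). The 15 Syt7 transcripts in the table included 2 that reached the minimum level, Syt7-202 and Syt7-201, and neither was called in any comparison. The EGCG libraries of Syt7-202 (2.93, 2.79 and 3.25 TPM) lay just above its overexpression libraries (2.75, 2.62 and 2.69 TPM).

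Of the Rab effectors that dock granules, Sytl4 (granuphilin, chromosome X), which binds Rab27a on the granule and Stx1a at the plasma membrane, was the most abundant of the 10 genes when all its transcripts were summed, but not in control or with EGCG without 2 short ones. Its control libraries held 58.30, 56.35 and 39.42 TPM, the overexpression libraries 77.23, 72.16 and 69.04 TPM, and the EGCG libraries 46.14, 48.91 and 49.59 TPM. The overexpression libraries were above all others, and control replicate 3 was the lowest of all, below the EGCG libraries. The rise was 0.51 ± 0.129 (SE; limma, adjusted p = 0.00749), and with EGCG Sytl4 fell by 0.58 ± 0.129 (limma, adjusted p = 0.00465). EGCG against control gave -0.07 (limma, adjusted p = 0.736), but 0.03 without control replicate 1, 0.01 without control replicate 2 and a call at -0.25 without control replicate 3 (limma, adjusted p = 0.0201).

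The spread of Sytl4 in control lay in 2 short transcripts, described here after their values were seen. Sytl4-204, an internal fragment with no coding sequence, was at 10.02, 8.81 and 3.57 TPM in control, listed at 0 in all overexpression libraries and at 0, 0 and 1.38 TPM with EGCG (lower with overexpression; limma, adjusted p = 0.000754). Sytl4-205, which covers the first coding exons only, was at 22.40, 21.13 and 7.72 TPM in control, 13.69, 12.15 and 10.01 TPM under Nr4a1 overexpression and 8.0, 8.85 and 13.12 TPM with EGCG, and was not called. The control library with the least of both also had the least chemoreceptor signal, 50 TPM against 108 and 91.7; its part in these 2 transcripts was not tested. The 3 long transcripts, Sytl4-201, Sytl4-202 and Sytl4-203, summed to 26.8 ± 1.18 TPM in control (SD, n = 3). Their sum was 60.9 ± 2.37 TPM in the overexpression group and 37.8 ± 2.51 TPM in the EGCG group, with no overlap between any of the groups. With the 2 short transcripts left out of the gene sum, an alternative chosen after the data were seen, Sytl4 rose by 1.15 with overexpression (limma, adjusted p = 1.55e-06), fell by 0.68 with EGCG (limma, adjusted p = 3.37e-05) and was higher with EGCG than in control by 0.48 (limma, adjusted p = 0.00387). The EGCG libraries thus lay within the control range with all transcripts summed, and above it without the 2 short ones.

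Sytl4-203 changed more than any other named transcript of the 10 genes that was above 1 TPM in every library. It skips exons 14 to 16 of the full-length Sytl4-201, and its coding sequence ends in the next exon, 1509 bases long against 2022 with the stop codon. The 30 bases around the join after exon 13, all coding and on the minus strand of chromosome X, are shown because only this join and the skipped exons set the 2 transcripts apart after exon 13; capitals mark the exon that follows exon 13.
Sytl4-201 join: cctttacatggaaagATCAGTACTGAGTCC
Sytl4-203 join: cctttacatggaaagGGATCAGTAATGGCG

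Sytl4-203 held 5.99, 4.84 and 7.28 TPM in control, 25.85, 24.28 and 23.88 TPM under Nr4a1 overexpression and 9.54, 11.47 and 8.38 TPM with EGCG. The 3 groups did not overlap. Its mean with overexpression was 4.09-fold that of control (log2 fold change 1.88 ± 0.14 SE; limma, adjusted p = 4.2e-05), and with EGCG it was 39.7% of the overexpression mean (-1.26 ± 0.14; limma, adjusted p = 0.000399). Sytl4-201, the full-length form, went from 19.1 ± 0.921 to 32.4 ± 1.53 and 25.6 ± 1.29 TPM, a 1.69-fold rise (0.73 ± 0.0595; limma, adjusted p = 6.43e-05) and a fall of 0.33 ± 0.0595 (limma, adjusted p = 0.00412), which was -0.11 and not called with quantile normalization (limma, adjusted p = 0.167). The share of Sytl4-203 in the sum of both was 24.8%, 19.5% and 27.3% in the control libraries, 43.1%, 43.3% and 43.3% with overexpression and 26.5%, 30.4% and 25.8% with EGCG. All overexpression libraries were above all others in that share, and control and EGCG overlapped. Sytl4-202, which ends in a longer exon 13 and also codes for a shortened protein, averaged 1.63, 3.83 and 2.38 TPM in the same order.

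**Figure D3:**
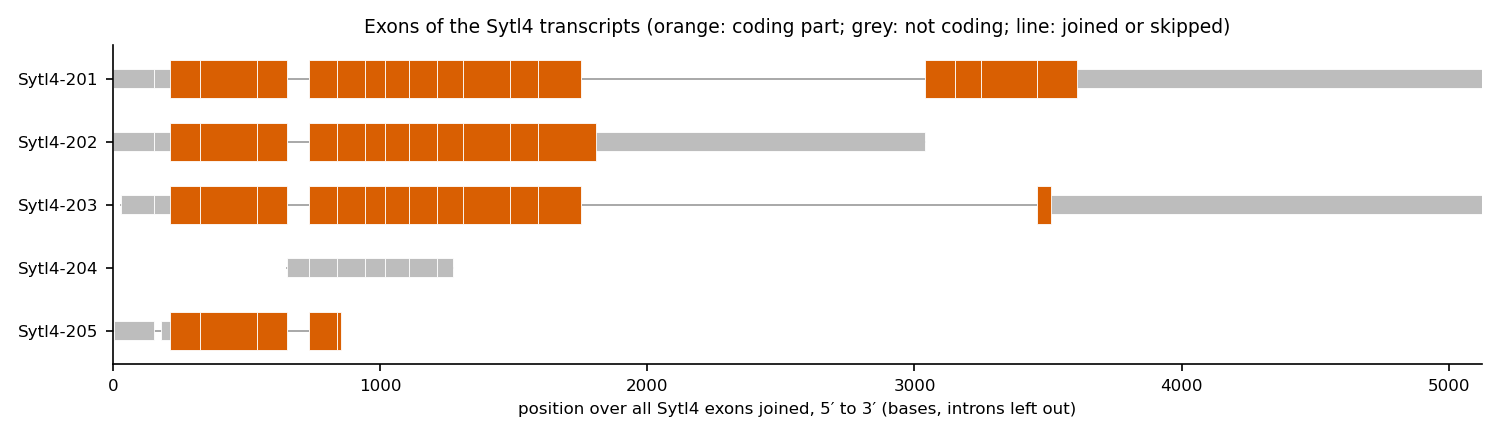
Exons of the 5 Sytl4 transcripts (y axis) along all exons of the gene joined from 5′ to 3′ (x axis, bases, introns left out). Tall orange blocks are coding and low grey blocks are not; Sytl4-203 lacks 3 exons of Sytl4-201 and has 54 coding bases in the last exon, and Sytl4-204 and Sytl4-205 end before exon 11.

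**Figure D4:**
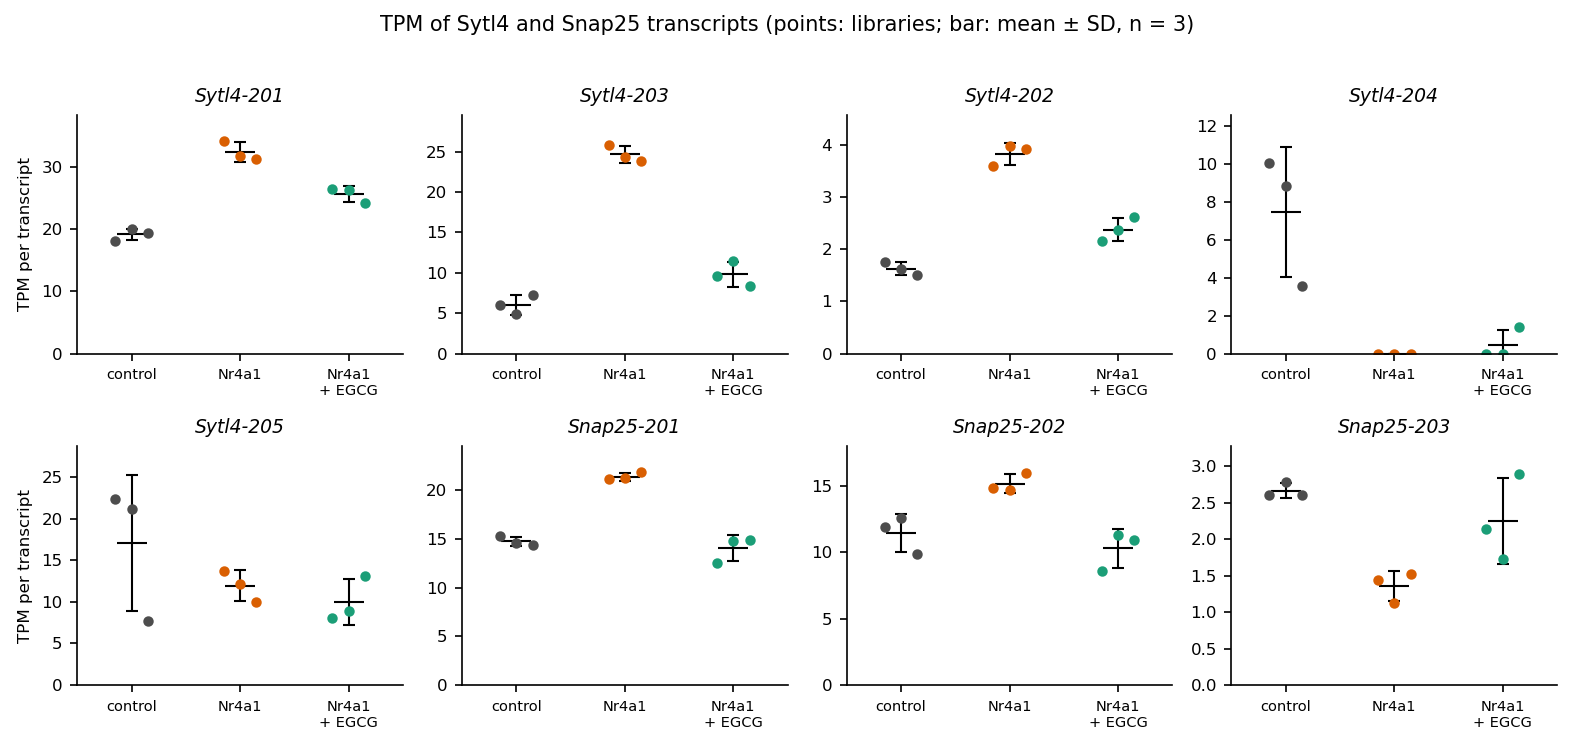
TPM (y axis, from 0, one scale per panel) of Sytl4 and Snap25 transcripts in the 3 groups (x axis); points are libraries and bars the mean ± SD of 3. Sytl4-201, Sytl4-202 and Sytl4-203 are highest with overexpression and lowest in control, Sytl4-204 is at 0 with overexpression, and Snap25-203 is low where Snap25-201 and Snap25-202 are high.

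Rab3a (chromosome 8), a small GTPase on the granule that takes part in docking and priming, went the other way. It was at 22.06, 22.76 and 21.26 TPM in control, 19.43, 18.09 and 20.57 TPM under Nr4a1 overexpression and 16.50, 19.40 and 18.76 TPM with EGCG. All control libraries were above all others, and the other groups overlapped. The difference of overexpression from control was -0.18 ± 0.071 (SE; limma, adjusted p = 0.0544), just outside the threshold, and it was called lower with median-ratio scaling (-0.29; limma, adjusted p = 0.0034), with quantile normalization (-0.33; limma, adjusted p = 0.00184) and in 7 further alternatives. With EGCG against control Rab3a was lower by 0.26 on the log2 scale (-0.26 ± 0.071; limma, adjusted p = 0.0347). That call ended without control replicate 1 or 2, without overexpression replicate 1 and without EGCG replicate 1 or 3 (limma, adjusted p between 0.0537 and 0.109).

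Rph3al (chromosome 11), also called Noc2, binds Rab3 and Rab27 and is needed for regulated exocytosis in endocrine cells. Its libraries held 7.64, 7.28 and 7.30 TPM in control, 8.49, 9.07 and 8.13 TPM under Nr4a1 overexpression and 8.36, 7.48 and 8.44 TPM with EGCG. The overexpression libraries were above the control libraries, and EGCG overlapped both. It rose by 0.19 ± 0.0614 (SE; limma, adjusted p = 0.027), but not with median-ratio scaling (0.08; limma, adjusted p = 0.311), nor without control replicate 2 or 3 or without overexpression replicate 1 or 2 (limma, adjusted p between 0.0569 and 0.101). Its 2 tested transcripts differed in pattern. Rph3al-202, a shorter coding transcript, was at 0, 0 and 0.36 TPM in control, 2.25, 1.85 and 1.26 TPM under Nr4a1 overexpression and 1.11, 1.36 and 0.46 TPM with EGCG, and rose with overexpression (1.31 ± 0.227; limma, adjusted p = 0.00223). The longer Rph3al-204 averaged 6.52, 5.54 and 6.23 TPM in the same order and was not called.

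On the granule membrane, Slc30a8 (chromosome 15), the zinc transporter ZnT8, gave the smallest adjusted p of the 10 genes. It was at 33.41, 35.79 and 37.51 TPM in control, 52.67, 51.62 and 49.86 TPM under Nr4a1 overexpression and 41.11, 41.73 and 40.17 TPM with EGCG. The 3 groups did not overlap, and EGCG lay between the others. The rise was 0.52 ± 0.0535 (SE; limma, adjusted p = 4.53e-05), 1.44-fold by group means, and the fall with EGCG was -0.32 ± 0.0535 (limma, adjusted p = 0.00103), which became -0.11 and was not called with quantile normalization (limma, adjusted p = 0.136). EGCG libraries remained above control by 0.20 (limma, adjusted p = 0.033). That last call ended when any 1 library was left out (limma, adjusted p between 0.0516 and 0.101), except control replicate 3 and overexpression replicate 1. Slc30a8 has a single transcript in the table, so its value does not depend on a split between transcripts.

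Ptprn (chromosome 1), which encodes the granule protein IA-2, held 18.65, 19.65 and 20.28 TPM in control, 21.50, 22.15 and 24.88 TPM under Nr4a1 overexpression and 18.17, 19.02 and 18.32 TPM with EGCG. The overexpression libraries were above all others, and control and EGCG overlapped. It rose by 0.21 ± 0.0625 (SE; limma, adjusted p = 0.0152) and fell by 0.29 ± 0.0625 with EGCG (limma, adjusted p = 0.0042). The rise was not called without control replicate 1 (limma, adjusted p = 0.0534) or overexpression replicate 3 (limma, adjusted p = 0.0567), nor with median-ratio scaling (0.10; limma, adjusted p = 0.221). Of its transcripts, Ptprn-201, with most of the gene's TPM, was at 17.5, 19.7 and 16.3 TPM and fell with EGCG (limma, adjusted p = 0.017), but not with median-ratio scaling (-0.16; limma, adjusted p = 0.121) or quantile normalization (-0.06; limma, adjusted p = 0.578), nor without overexpression replicate 3 or EGCG replicate 1 or 3 (limma, adjusted p between 0.0547 and 0.0607). Ptprn-204, which keeps an intron, was called higher with overexpression (2.00 to 3.06 TPM; limma, adjusted p = 0.0238), a call lost with median-ratio scaling (limma, adjusted p = 0.0632) or quantile normalization (0.056), and without control replicate 1 or 2 or overexpression replicate 1 or 3 (between 0.0525 and 0.0809).

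Ptprn2 (chromosome 12), the related granule protein phogrin, stayed within 13.13 and 15.30 TPM over all 9 libraries. It was at 14.82, 14.25 and 13.89 TPM in control, 15.18, 14.67 and 15.30 TPM under Nr4a1 overexpression and 13.13, 14.60 and 14.19 TPM with EGCG. Control overlapped both other groups, and no comparison passed the test, with 0.07 ± 0.0533 (SE) for overexpression against control (limma, adjusted p = 0.3), a sign that turned with median-ratio scaling (-0.04), quantile normalization (-0.07) and on nuclear protein-coding genes (-0.01). As with Stx1a, the sum covered transcripts of different kinds. The coding Ptprn2-201 went from 8.31 ± 0.881 to 10.3 ± 0.985 TPM with overexpression (0.29 ± 0.0934; limma, adjusted p = 0.0365) and was at 9.70 TPM with EGCG. Ptprn2-204, annotated as a target of nonsense-mediated decay, averaged 5.61, 4.19 and 3.80 TPM and was not called. The rise of Ptprn2-201 was lost with median-ratio scaling (0.16; limma, adjusted p = 0.19), with quantile normalization (0.15; limma, adjusted p = 0.227) and with no filter on low values (limma, adjusted p = 0.0888), and also without control replicate 1 or 2, overexpression replicate 1 or 2 or EGCG replicate 3 (limma, adjusted p between 0.0503 and 0.116).

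In all, the 10 genes had 57 transcripts in the table, of which 25 reached the minimum level and were tested. With overexpression 10 of these rose and 3 fell, where 46.2% of all tested transcripts were called, 29.8% higher and 16.4% lower. Median-ratio scaling gave 7 higher and 6 lower. With EGCG against overexpression 1 rose and 8 fell, where 32.9% of all transcripts were called, 11.4% higher and 21.5% lower. With EGCG against control 4 were higher and 1 lower, where 11.1% were called, 6.49% higher and 4.57% lower. In this last comparison there were 8 calls without control replicate 3 and 2 without control replicate 1 or control replicate 2. There was 1 without EGCG replicate 1, and there were 3 without overexpression replicate 1 or 2 or EGCG replicate 2. The share of all transcripts called was not computed for these fits or for median-ratio scaling. That of all tested genes was 27.1% without control replicate 3. It was 8.27% and 8.15% without control replicates 1 and 2, and 6.15% without EGCG replicate 1. When the genes were summed over protein-coding transcripts alone, 7 of the 10 rose and 1, Rab3a, fell with overexpression, where 62.6% of all genes tested in that way were called, 41.4% higher and 21.1% lower. The added rises were Stx1a, by 0.36 (limma, adjusted p = 0.000695), and Ptprn2, by 0.29 (limma, adjusted p = 0.02).

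Each of the 10 was set beside the genes of its own family to see how much of the family's TPM it held. Snap25 held 50.8% ± 2.62 of the SNAP genes (Snap25, Snap47, Snap29 and Snap23) in control (SD, n = 3, also below), 52.0% ± 0.481 in the overexpression group and 47.6% ± 2.62 in the EGCG group. Stx1a made up 27.7% ± 1.14, 30.7% ± 1.78 and 22.4% ± 1.09 of 6 syntaxins of the plasma membrane, with a mean just above that of Stx2 in control and with overexpression but below Stx2 and Stx4a with EGCG, and its EGCG libraries lay below those of both other groups. Vamp2 held about the same share of 5 Vamp genes in all groups (10.2%, 9.96% and 9.93%), below Vamp8, Vamp4 and Vamp3. Of the 4 Rab3 genes Rab3a held 41.8% ± 1.25 in control, 37.9% ± 1.96 and 37.2% ± 1.2, with all control libraries above all others, and Rab3c had the highest mean in each group. Sytl4 led the 5 synaptotagmin-like genes with 81.6%, 86.9% and 81.9%, all its transcripts summed. Its 2 short transcripts held 45.8%, 16.4% and 21.6% of its own TPM, so these family shares depend on them. Rph3al held at least 98.7% of its pair with Rph3a in every library. Ptprn made up 57.7%, 60.2% and 57.0% of the pair with Ptprn2. Slc30a8 held 27.8% ± 1.75 of 10 Slc30 zinc exporters in control, 38.2% ± 0.797 and 31% ± 0.721 in the other groups, with no overlap between groups. Syt7 held only 4.52%, 4.35% and 5.31% of 17 synaptotagmins, which were led by Syt13. These shares were not tested, since 3 libraries against 3 cannot reach an exact permutation p under 0.10 and the genes of a family share a sum.

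Around the 10 genes, 153 other genes of granule exocytosis were listed in 7 functional groups. Of these 152 were found and 110 were tested. With overexpression 47 rose and 20 fell, 67 of 110 beside 59.5% of all tested genes (38.2% higher, 21.3% lower). The median log2 fold change of the 110 was 0.12. The counts became 38 and 34 under median-ratio scaling, beside 29.6% and 29.7% of all tested genes. They were 39 and 33 after quantile normalization, beside 29.8% and 28.4%. On nuclear protein-coding genes, with more than 110 tested, they were 43 and 26, beside 31% and 27.6%. With EGCG against overexpression 22 rose and 40 fell, beside 18.8% and 34.1% of all tested genes (median of the 110, -0.09). These became 33 and 27 under median-ratio scaling, beside 25.6% and 25.8% of all tested genes. They were 30 and 30 after quantile normalization, beside 23.5% and 25.9%. On nuclear protein-coding genes they were 39 and 28, beside 29.9% and 21.8%. Against control the EGCG libraries had 18 higher and 3 lower, beside 11.1% and 7.1% of all tested genes (median 0.04). Median-ratio scaling moved the median of all tested genes from 0.095 to -0.002 with overexpression and from -0.088 to -0.002 with EGCG, so a split of directions depends on the scale. The genes named below had the smallest adjusted p of their group in at least 1 of the first 2 comparisons, and there their direction was the same under each scaling.

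Among other SNAREs, 2 of 10 tested genes rose with overexpression and 0 fell (also 0 at an unadjusted p under 0.05 in limma's test), with 2 lower under median-ratio scaling, and 3 rose and 3 fell with EGCG, against 5 and 2 under median-ratio scaling. Vamp3, a SNARE of endosomes, went from 14.7 ± 0.732 to 22.1 ± 0.951 and 16.1 ± 1.25 TPM (SD, n = 3 each), and Snap47 from 17.4 ± 1.08 to 24.2 ± 0.757 and 19.8 ± 0.38 TPM, with its fall not called after quantile normalization (limma, adjusted p = 0.111) or on nuclear protein-coding genes alone (limma, adjusted p = 0.0778). Stx3, a syntaxin found on granules, and Vamp4 were higher with EGCG than with overexpression alone, by 0.33 and 0.20 on the log2 scale.

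The 22 tested genes for SNARE assembly and priming were split, with 7 higher and 6 lower with overexpression (7 and 9 under median-ratio scaling) and 5 higher and 7 lower with EGCG (7 and 6). Cadps, which primes dense-core granules, rose from 16.2 ± 0.18 to 29.3 ± 1.67 TPM (0.82 ± 0.059 SE; limma, adjusted p = 6.21e-06) and fell to 17.1 ± 1.04 TPM with EGCG. Unc13a, the priming factor Munc13-1, did the opposite, with 11.8 ± 0.445, 7.27 ± 0.382 and 13.5 ± 0.577 TPM (-0.64 ± 0.0567 with overexpression; limma, adjusted p = 2e-05). The complexin gene Cplx2 and the syntaxin-binding taxilin Txlna rose with overexpression, by 0.54 and 0.57, and fell with EGCG, by 0.61 and 0.57. Of 7 tested synaptotagmins other than Syt7, Syt13 (38.3, 58.1 and 34.7 TPM) and Syt4 (22.1, 30.2 and 21 TPM) rose and fell, while Syt5, a calcium sensor, fell from 28.0 ± 0.956 to 21.3 ± 1.09 TPM and rose to 25.8 ± 0.561 TPM with EGCG.

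Genes of Rab3 and Rab27 with their regulators and effectors rose in 10 of 19 cases with overexpression and fell in 3, a split that became 5 and 6 under median-ratio scaling. With EGCG 1 of them rose and 5 fell, against 3 and 1 with median-ratio scaling. Rapgef4, the cAMP sensor Epac2 that acts on granule release, went from 9.78 ± 0.992 to 13.9 ± 0.465 and 10.2 ± 0.38 TPM. The motor protein gene Myo1c was at 11.8, 16.9 and 14.9 TPM, and Rab3gap2, part of the complex that switches Rab3 off, at 8.20, 10.4 and 10.4 TPM. Rab3d, a relative of Rab3a, was lower with overexpression by 0.20 on the log2 scale (-0.20 ± 0.0718 SE; limma, adjusted p = 0.0368) and rose by 0.36 with EGCG.

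The exocyst tethers vesicles to the plasma membrane. Of its 12 tested genes with the Ral GTPases, 6 rose and 1 fell with overexpression, 4 and 2 with median-ratio scaling, and 3 rose and 6 fell with EGCG, 4 and 4 with median-ratio scaling. Exoc8 was at 3.63 ± 0.104 TPM in control, 9.55 ± 0.285 TPM in the overexpression group and 3.71 ± 0.254 TPM in the EGCG group (1.19 ± 0.0567 SE; limma, adjusted p = 8.62e-07). Rala, the GTPase that binds the exocyst, fell from 31.1 ± 3.5 to 17.5 ± 1.45 TPM and rose to 26.3 ± 3.48 TPM with EGCG. Between EGCG and control limma called 0 of the 12, of which 2 were higher at an unadjusted p under 0.05.

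Zinc transporters other than Slc30a8 rose in 11 of 16 cases and fell in 2 with overexpression (median 0.34; 9 and 3 under median-ratio scaling), while 1 rose and 8 fell with EGCG (median -0.19; 3 and 5 with median-ratio scaling). Slc39a7, which releases zinc from the endoplasmic reticulum, went from 15.3 ± 1.93 to 44.1 ± 1.19 and 20.3 ± 1.27 TPM (1.48 ± 0.0833 SE; limma, adjusted p = 1.93e-06). Slc30a4 and Slc30a7, exporters of endosomes and the Golgi, rose by 0.57 and 0.68. Slc30a9, above Slc30a8 in control and with EGCG but below it with overexpression, fell from 52.2 ± 2.23 to 34.7 ± 1.31 TPM and rose to 49.2 ± 2.42 TPM with EGCG.

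Other proteins of granule and vesicle membranes showed 9 of 24 genes higher and 7 lower with overexpression, and 8 higher and 9 lower with EGCG (9 and 10, then 9 and 7, under median-ratio scaling). Cltrn (collectrin) rose from 17.9 ± 1.41 to 37.1 ± 0.136 TPM, a log2 fold change of 1.02 ± 0.0578 (SE; limma, adjusted p = 2.06e-06), and was at 21.6 ± 0.47 TPM with EGCG. Hid1, needed for granule maturation, went from 6.83 ± 0.4 to 14.2 ± 0.784 and 9.10 ± 0.49 TPM, and the amine transporter gene Slc18a1 from 1.32 to 4.01 and 1.80 TPM. Scamp1 and Vat1 were lower with overexpression, by 0.46 and 0.50 on the log2 scale (-0.46 and -0.50), and rose with EGCG by 0.39 and 0.89.

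**Figure D5:**
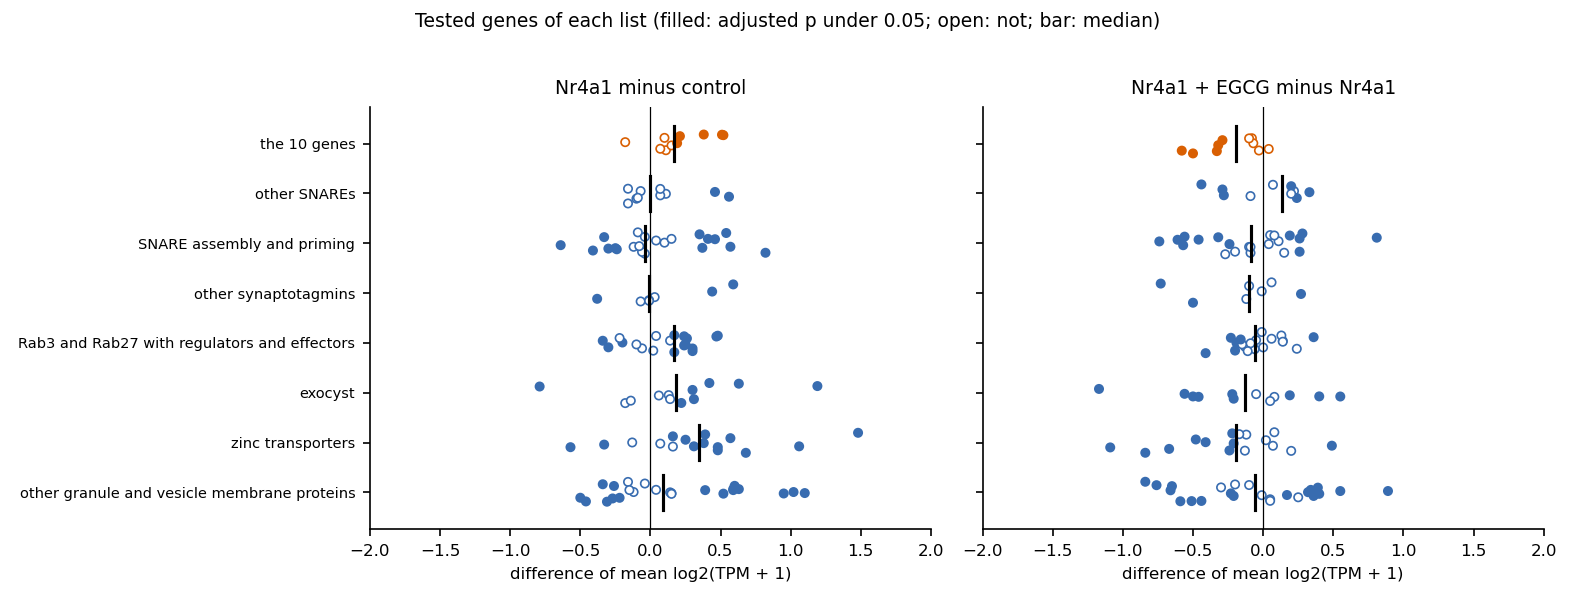
Difference of mean log2(TPM + 1) (x axis) of each tested gene of the 8 lists (y axis) for overexpression against control (left) and EGCG against overexpression (right); filled points are called and bars are medians. The 10 genes (orange) lie between -0.18 and 0.52 on the left and between -0.58 and 0.04 on the right, while Slc39a7 among the zinc transporters reaches 1.48 and -1.09 and Exoc8 among the exocyst genes 1.19 and -1.17.

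For the 4 members called in both of the first comparisons, the protein-coding genes with the most similar pattern were sought by the Euclidean distance of log2(TPM + 1) values, centred on each gene's mean, over the 9 libraries and 10750 genes. Nearest to Snap25 were Bex3 (distance 0.11; 95.1, 123.0 and 88.1 TPM by group mean) and the splicing regulator Tra2b (0.134). Sytl4, with all its transcripts summed, lay nearest to Zzz3 (0.183) and Gclm (0.221). Like Sytl4, both had their lowest value of the 9 libraries in control replicate 3 (4.71 and 13.99 TPM). Ptprn lay nearest to Senp1 (0.101) and Bckdk (0.126). Nearest to Slc30a8 was the histone chaperone gene Asf1b (0.0924; 14.1, 20.3 and 16.1 TPM). None of these 7 genes is on the granule lists.

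Nr4a1 binds DNA as a monomer at the motif called NBRE, AAAGGTCA. In windows of 250 bases before to 50 bases after the gene start, from RefSeq, 6 of the 10 genes had an entry, with 8 windows between them. The motif, searched on both strands, was in 0 of these 8 windows and in 495 of all 32851 windows (1.51%). At that rate 8 windows seldom hold the motif, so the 0 cannot tell these genes from others. Snap25, Vamp2, Syt7 and Slc30a8 had no entry.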

How the data were processed

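Per the labels' protocols, RNeasy columns and a stranded kit for total RNA were used; all 9 libraries carry 1 batch label. The authors deposited TPM per Ensembl transcript. Per the submitters' processing notes they used bcl2fastq 2.20, FastQC 0.11.9, cutadapt 2.8, STAR 2.7.1a, RSEM 1.2.31, with GRCm39 as build. The gene annotation they used was not stated. RSEM shares reads between transcripts of a gene by estimation, so transcript values are less certain than gene sums.

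Identifiers were matched to GENCODE M21 (GRCm38) for names, biotypes and exons: 138346 of 142435 (97.13%). Unmatched ones held 17.993% to 20.572% of a library's TPM. TPM was summed per gene. Features reaching 1 TPM in 3 or more libraries (11950 genes, 23656 transcripts) were tested with limma 3.58.1 in R 4.3.3 on log2(TPM + 1) with a variance trend, all 9 libraries in 1 fit, two-sided, Benjamini-Hochberg adjusted per comparison. The fit was tested on simulated data. Tables and figures used Python 3.11.15, pandas 2.3.3 and matplotlib 3.10.9.

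Named were all 10 members, their transcripts with at least 10% of the gene's TPM, up to 4 called genes of smallest adjusted p per other list, and the 2 nearest genes per member called in both first comparisons. Of these nearest genes, 1 is not reported here. Members and lists were chosen with earlier results of these data known.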

Additional observations from a re-analysis of the deposited data

How the results depend on the processing

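Alternatives covered pseudocount, filter, scaling, transcript set, fit and each library left out. Signs turned only for members in comparisons in which they were not called. With overexpression, Stx1a became -0.008 and Ptprn2 -0.044 under median-ratio scaling. Quantile normalization gave 0 for Vamp2 and -0.071 for Ptprn2, nuclear protein-coding genes -0.013 for Ptprn2, and protein-coding transcripts -0.067 for Vamp2. With EGCG against overexpression, median-ratio scaling, quantile normalization and nuclear genes gave 0.056, 0.032 and 0.109 for Syt7, 0.014, 0.064 and 0.062 for Rab3a, and 0.02, 0.017 and 0.068 for Rph3al. For Ptprn2 the last 2 gave 0.037 and 0.043, and protein-coding transcripts gave 0.08 for Syt7. With EGCG against control, nuclear genes gave 0.03 for Ptprn2, protein-coding transcripts 0.202 for Ptprn2 and 0.131 for Sytl4, and Sytl4 without its 2 short transcripts 0.478. Leaving out 1 library gave -0.063 to 0.006 for Syt7 (EGCG against overexpression), and against control -0.246 to 0.031 for Sytl4 and -0.064 to 0.007 for Ptprn2.

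Members called with overexpression were 5, all higher. Median-ratio scaling, quantile normalization and nuclear protein-coding genes alone each gave 3 higher and 1 lower. Of all tested genes these called 29.6% to 31% higher and 27.6% to 29.7% lower. There were 8 calls on protein-coding transcripts, beside 62.6%, and 4 to 6 with 1 library left out, beside 52.6% to 60.8%. With EGCG against overexpression 5 were called, all lower, and 3 after quantile normalization, beside 53% and 49.5% of all tested genes. On nuclear protein-coding genes 1 was higher and 4 were lower, beside 29.9% and 21.8%. Against control the 2 member calls became 0 in a fit of the 6 libraries, and 0 to 3 with 1 library left out. There the 21 other granule genes called became 36 on nuclear genes, 10 with 6 libraries and 6 to 32 with 1 library left out. The share called over all tested genes moved as well, from 18.2% to 24.2% on nuclear genes and 7.49% with 6 libraries. With 1 library left out it was 6.15% to 27.1%. The 5 member transcripts became 3 with no filter and 1 to 8 with 1 library left out. Some of these fits held fewer libraries. The cause of the changed counts was not tested.

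Replicate numbers are shared by the groups. Same-numbered libraries deviated together with correlations from -0.021 to 0.214, and libraries of unlike number with -0.238 to 0.121. Those of the same number were not all above 0.1, so the numbers were not taken as pairs. With the replicate block, members called were 4, 5 and 0 in the 3 comparisons, beside 56.3%, 49.2% and 10.2% of all tested genes. The 0 had 3 at an unadjusted p under 0.05 in limma's test. Member transcripts called with the block were 12, 9 and 2, and the share of all transcripts was not computed there. Depth cannot be read from TPM, so genes near 1 TPM carry unknown counting error.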
